A study of Mus musculus with 30 samples.

Results

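The cytosolic ribosomal protein genes encode the proteins of the small and large subunits of the ribosome that translates nuclear messenger RNA. They were taken as every gene whose symbol has the Rpl, Rps, Rplp or Rpsa form of a cytosolic ribosomal protein, leaving out the Rps6k kinases, and whose mean over the libraries was at least 50 counts. Of 82 rows that matched, 79 were members, out of 21841 genes in the table, with 48 from the large and 31 from the small subunit. RNA was sequenced in 30 libraries of mammary tumours. The animals were FVB/N-Tg(MMTV-PyVT)634Mul/J, in which the polyoma middle T oncogene is driven by the mouse mammary tumour virus promoter. There were 6 groups of 5 libraries, treated for 72 hours before collection per the labels. The groups received vehicle, 5-FU at 40 mg/kg every 4 days, gemcitabine at 64 mg/kg every 7 days, KCL-HO-1i at 25 µmol/kg daily, or KCL-HO-1i together with either chemotherapy. The doses are those of the labels. The study's own text gives a shorter treatment time and a lower gemcitabine dose, and which of them applies to these libraries could not be settled here. Heme oxygenase-1 is the enzyme that KCL-HO-1i inhibits, and 5-FU and gemcitabine are nucleobase and nucleoside analogue chemotherapies. The genotype label reads WT for all 30 libraries, beside a strain that carries the transgene in every group. Total counts ranged from 10067577 to 13622264 per library.

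Ribosomal proteins are made in matched amounts, because each ribosome carries 1 copy of nearly every one of them, and unassembled copies are degraded. Their mRNAs belong to the TOP mRNAs, which begin with a C followed by a run of pyrimidines at the 5′ end, and whose translation follows growth signalling through mTORC1. Some members also have a role outside the ribosome: Rpl5 and Rpl11 form a particle with 5S ribosomal RNA that binds Mdm2. Mutations in Rps19 and other members cause Diamond-Blackfan anaemia.

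The start of the transcript was looked up in RefSeq (GRCm38.p6) for 59 of the 79 members, which have 70 start windows of 300 bases. The following windows were picked to set canonical members that have a pyrimidine run beside paralogs, and Rpl38 because several results turn on it. Each shows 14 bases before and 16 from the annotated start, with the unbroken run of pyrimidines from the start in capitals.

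Rpl38: gcggaagcctcgttCTTTCCCCgttctctt
Rps6: agcggaagtcgggcCTCTTTTTCgtgacgc
Rpl15: tgggagaaagccttCTTCCTTTCCTCTggc
Rps10: cgccgcgcacgcccCTTCCTTTCCagcctc
Rps27: tttccgctttcgctCCTTTCCggcggtgac
Rps27l: cactcctccccgccgcctctatcccggaag
Rpl22l1: tgcggcgcaagcccgttctcttcccacggc
Rpl7l1: tgaggctgcgcaagCgcagtagctgaagca

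The Rpl38 window lies at chr11:114668566-114668595 on the plus strand and that of Rps6 at chr4:86857352-86857381 on the minus strand. The 3 paralogs Rps27l, Rpl22l1 and Rpl7l1 had no run longer than 1 pyrimidine at these starts, but nor did canonical Rpl22 at either of its annotated starts. Rps27l and Rpl22l1 did have a run of 8 pyrimidines within 20 bases of the printed start, and Rpl7l1 did not. Of the 70 member windows, 13 began with C and at least 5 pyrimidines in a row, which is 18.6%, beside 2.22% of 11634 windows of other genes with a mean of at least 50 counts and 2.51% of all 32851 windows. A run of 8 pyrimidines within 20 bases of the start was present in 44.3% of member windows. It was in 15.7% of the windows of those other genes and 16.05% of all windows. The core CCGGAAG of the ETS family was searched on both strands over the 300 bases. It was in 35.7% of member windows, 17.8% of the windows of those other genes and 8.86% of all windows. AAGATGGC, a YY1 motif, was in 11.4%, 4.41% and 2.75% in the same order, whereas CCAAT was in 31.4%, 37.5% and 37.4%. These are matches of letters in the annotated windows, and an annotated start can lie some bases from the start used in these tumours.

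The members together took 7.74% ± 1.47 (SD, n = 30) of the counts, from 4.98% to 11.4% by library. In vehicle tumours the share in replicates 1 to 5 was 8.77, 7.77, 7.61, 6.45 and 6.83%, with a mean of 7.49% ± 0.90 (SD, n = 5). After 5-FU it was 7.13, 7.92, 7.10, 11.4 and 6.90%. After gemcitabine it was 9.11, 7.52, 10.96, 6.87 and 7.79%. The group ranges overlapped, and the 5-FU mean of 8.09% ± 1.89 rested on replicate 4.

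With KCL-HO-1i the share in replicates 1 to 5 was 7.43, 7.24, 8.31, 4.98 and 9.79%. With KCL-HO-1i/5-FU it was 6.60, 6.90, 6.39, 5.66 and 7.10%. With the gemcitabine combination it was 8.22, 6.03, 9.93, 8.72 and 8.78%. The KCL-HO-1i/5-FU group had the lowest mean, 6.53% ± 0.556, and the narrowest spread, and libraries of vehicle, 5-FU, gemcitabine and KCL-HO-1i/gemcitabine lay within its range. The lowest library, KCL-HO-1i replicate 4, also had the highest share of counts from the mitochondrial genome, 9.69%. In bulk tumour RNA, fewer cells of a type and less RNA per cell cannot be told apart.

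**Figure D1:**
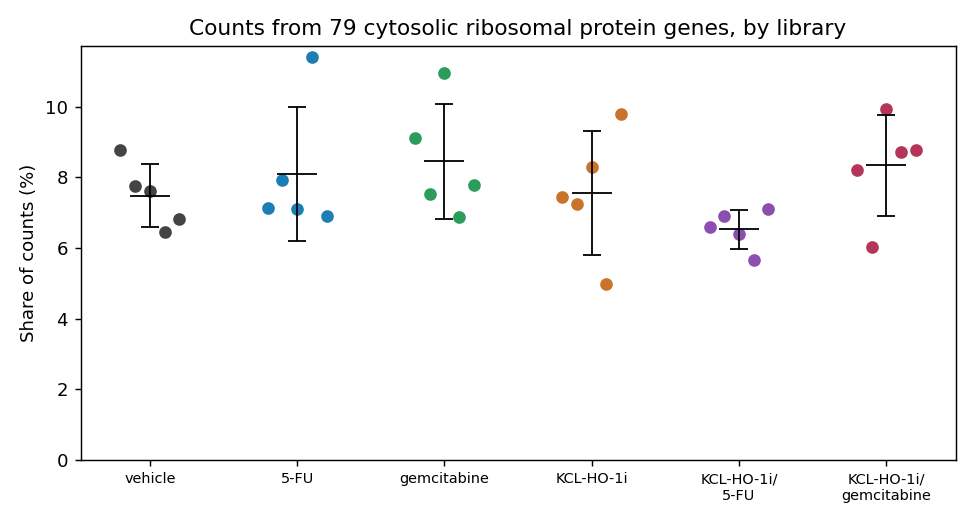
Share of each library's counts from the 79 cytosolic ribosomal protein genes, in percent, by treatment group (points, libraries in replicate order; horizontal line and bars, mean and SD, n = 5). The groups overlap, and 5-FU replicate 4 at 11.4% is the highest library.

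No member passed an adjusted p of 0.05 (edgeR quasi-likelihood test, Benjamini-Hochberg over 13663 genes) in any of 13 comparisons. Over all genes the called share was 0% in 11 of them, 0.0586% for KCL-HO-1i averaged over its 3 backgrounds and 0.651% for any difference among the 6 groups. At an unadjusted p under 0.05, members numbered 2 of 79 for KCL-HO-1i/5-FU against vehicle, where 17.6% of all genes reached it. They numbered 8 of 79 for KCL-HO-1i/5-FU against 5-FU (11.4% of all genes) and 3 of 79 when that combination was set against KCL-HO-1i alone (16.9% of all genes). With KCL-HO-1i averaged over its backgrounds 1 of 79 reached it, beside 23% of all genes. For 5-FU, gemcitabine and KCL-HO-1i each against vehicle the number was 0, beside 3.89%, 3.83% and 9.43% of all genes. It was also 0 for KCL-HO-1i/gemcitabine against vehicle, gemcitabine and KCL-HO-1i, where 19.8%, 13.5% and 2.66% of all genes reached it. The interaction with 5-FU had 1 member (8.53% of all genes), the interaction with gemcitabine 0 (1.34%), and the test over all 6 groups 3 (18.7%).

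In the main fit the members' changes were small. With the label number as a covariate several medians were larger, as given at the end. Against vehicle the median log2 fold change in the main fit was 0.06 for 5-FU, 0.19 for gemcitabine and 0.00 for KCL-HO-1i. The combination with 5-FU had -0.19 and the combination with gemcitabine 0.18, while the median of all genes stayed between -0.01 and 0.03. With KCL-HO-1i alone 34 of 79 members were below 0, so they lay on both sides. Every other comparison with vehicle was one-sided. Members above 0 numbered 71 of 79 for 5-FU, 78 of 79 for gemcitabine and 77 of 79 for KCL-HO-1i/gemcitabine. The share of all genes above 0 is not given for these. Single libraries carried much of the medians against vehicle: without 5-FU replicate 4 the 5-FU median was -0.06, and without gemcitabine replicate 3 the gemcitabine median was 0.07. The median of the 5-FU combination was -0.11 without vehicle replicate 1, and that of the gemcitabine combination was 0.10 without vehicle replicate 4 and 0.11 without its own replicate 3. In KCL-HO-1i/5-FU tumours 77 of 79 members had a value below 0 against vehicle, beside 48.6% of all genes; Rpl38 and Rpl19 were the exceptions. The same comparison gave a median of -0.27 against 5-FU and -0.20 against KCL-HO-1i, again with 77 of 79 below 0, beside 46.7% and 48.7% of all genes. The first was -0.13 without 5-FU replicate 4 and -0.55 with the label number as a covariate. The second was -0.08 without KCL-HO-1i replicate 5 and -0.12 without KCL-HO-1i/5-FU replicate 4. These 3 comparisons share the KCL-HO-1i/5-FU libraries, and the members rise and fall together by library, so the count of members is not a count of independent changes. Other lists differed in this group too. The summed level of 10 proliferation genes was 501 ± 212 CPM, beside 856 ± 138 CPM in vehicle and 756 ± 252 CPM after 5-FU (mean ± SD, n = 5). Macrophage markers summed to 788 ± 214 CPM beside 397 ± 147 CPM in vehicle, and fibroblast and matrix markers to 2991 ± 3388 CPM beside 840 ± 479 CPM. In KCL-HO-1i/gemcitabine tumours, where the member median was 0.18, macrophage markers were at 784 ± 171 CPM. Fibroblast and matrix markers were at 4941 ± 6050 CPM there, and the proliferation genes at 742 ± 164 CPM. So the macrophage and fibroblast levels were not particular to the 5-FU combination. Their part in the members' values was not tested.

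**Figure D2:**
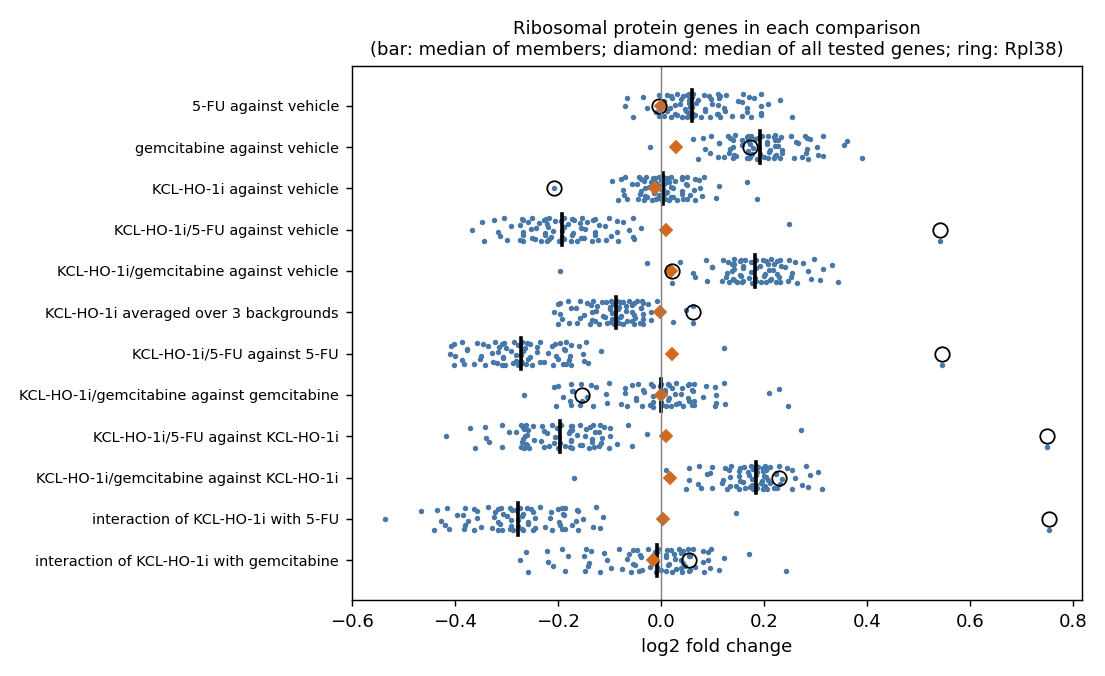
log2 fold change of each of the 79 members (points) in 12 comparisons, with the median of the members (bar), the median of all tested genes (diamond) and Rpl38 (ring). Most members lie below 0 in the KCL-HO-1i/5-FU comparisons, and above 0 for gemcitabine and KCL-HO-1i/gemcitabine against vehicle. In KCL-HO-1i/5-FU tumours Rpl38 lies at 0.54 against vehicle and 0.75 against KCL-HO-1i.

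The roles gave like values. Among small subunit members, the median against 5-FU in KCL-HO-1i/5-FU tumours was -0.31 over 31 genes, and -0.26 over 48 large subunit genes. The ratio of large to small subunit counts varied little, at 1.54 ± 0.034 (SD, n = 30), a coefficient of variation of 2.19%. Rplp0, Rplp1 and Rplp2, which form the stalk that recruits elongation factors, had a median of -0.34 in that comparison. Rpl5 and Rpl11 had a median of -0.26, and the 18 Diamond-Blackfan anaemia genes a median of -0.27, all 18 below 0. None passed the adjusted test.

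Rps6, the small subunit protein phosphorylated by S6 kinase, was at 1367 ± 229.5 CPM (counts after TMM scaling of each library to one common total) in vehicle, 1199 ± 111.2 CPM with KCL-HO-1i/5-FU and 1553 ± 253.5 CPM with KCL-HO-1i/gemcitabine (mean ± SD, n = 5). Rplp0, often used as a reference gene in quantitative PCR, was at 2137 ± 318.3 CPM in vehicle and 1829 ± 294.6 CPM with KCL-HO-1i/5-FU. Rpsa, which also serves as a laminin receptor, was at 1190 ± 145.5 CPM in vehicle and 958 ± 139.6 CPM with KCL-HO-1i/5-FU. Its difference was -0.31 (SE 0.16) on the log2 scale, with an adjusted p of 0.304 (edgeR).

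The rest of the translation apparatus was described from lists. Against 5-FU, KCL-HO-1i/5-FU tumours had 2 of 19 ribosome assembly genes lower and 0 higher at an unadjusted p under 0.05, where 5.26% of all genes were lower. Of 28 initiation factors, 6 were lower and 1 higher. When KCL-HO-1i was averaged over its backgrounds, 12 of 19 assembly genes were lower at an unadjusted p under 0.05 (9.22% of all genes) and all 19 had a value below 0, with a median of -0.21. The average was made up of unequal parts, none with an adjusted call: at an unadjusted p under 0.05, 15 of 19 were lower for KCL-HO-1i/gemcitabine against gemcitabine (median -0.40, 6.51% of all genes) and 1 of 19 for KCL-HO-1i against vehicle (median -0.06, 2.08% of all genes). Gemcitabine alone had 8 of 19 higher than vehicle at the same unadjusted threshold (median 0.31, 2.05% of all genes), and its libraries enter both of the gemcitabine comparisons. For all assembly genes but Rrn3 the SD was larger in the gemcitabine group than in vehicle. Fbl, the methyltransferase of box C/D particles, was at 191 ± 84.5 CPM beside 148 ± 22.2 CPM in vehicle (mean ± SD, n = 5). The dependence of this list on single libraries was not tested. With KCL-HO-1i averaged over its backgrounds, Fbl had a log2 value of -0.36 (SE 0.10, adjusted p = 0.0582, edgeR). No gene of these lists passed the adjusted test, and the smallest adjusted p among the assembly genes was 0.0556. The 79 members had a median of -0.09 in that comparison, and 78 mitochondrial ribosomal protein genes a median of -0.06. The mitochondrial genes were lower more widely in the 5-FU combination, with 36 of 78 lower at an unadjusted p under 0.05 against KCL-HO-1i alone (median -0.27, 9.43% of all genes) and 20 of 78 against 5-FU (median -0.23, 5.26% of all genes). None of them passed the adjusted test in either comparison, where the smallest adjusted p values by edgeR's quasi-likelihood test were 0.111 and 0.261.

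Rpl38, a large subunit protein known for selective translation of Hox mRNAs in the embryo, went against the other members. It lies at chr11:114668524-114672331 (GRCm38) on the plus strand. In KCL-HO-1i/5-FU tumours it was at 626, 326, 347, 568 and 684 CPM in replicates 1 to 5. In vehicle it was at 398, 419, 282, 404 and 248 CPM, and with KCL-HO-1i at 265, 305, 330, 220 and 397 CPM. Replicates 1, 4 and 5 of KCL-HO-1i/5-FU were above every other library of the series, and replicates 2 and 3 lay within the range of the others. The log2 fold change against KCL-HO-1i was 0.75 (SE 0.20, unadjusted p = 0.000797, adjusted p = 0.111, edgeR), and against vehicle 0.54 (SE 0.20, adjusted p = 0.169, edgeR). DESeq2 called the first of these with an adjusted p of 0.0178, and how many of all genes it called is not given here. The interaction with 5-FU was 0.75 (SE 0.28, adjusted p = 0.486, edgeR).

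Rpl19, at chr11:98026710-98030492 on the plus strand, was at 2405 CPM in KCL-HO-1i/5-FU replicate 1, and between 972 and 1228 CPM in the other 4 libraries of that group. The highest value outside that library was 1771 CPM, in gemcitabine replicate 3. The group's mean of 1402 ± 570.2 CPM therefore rested on 1 library.

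**Figure D3:**
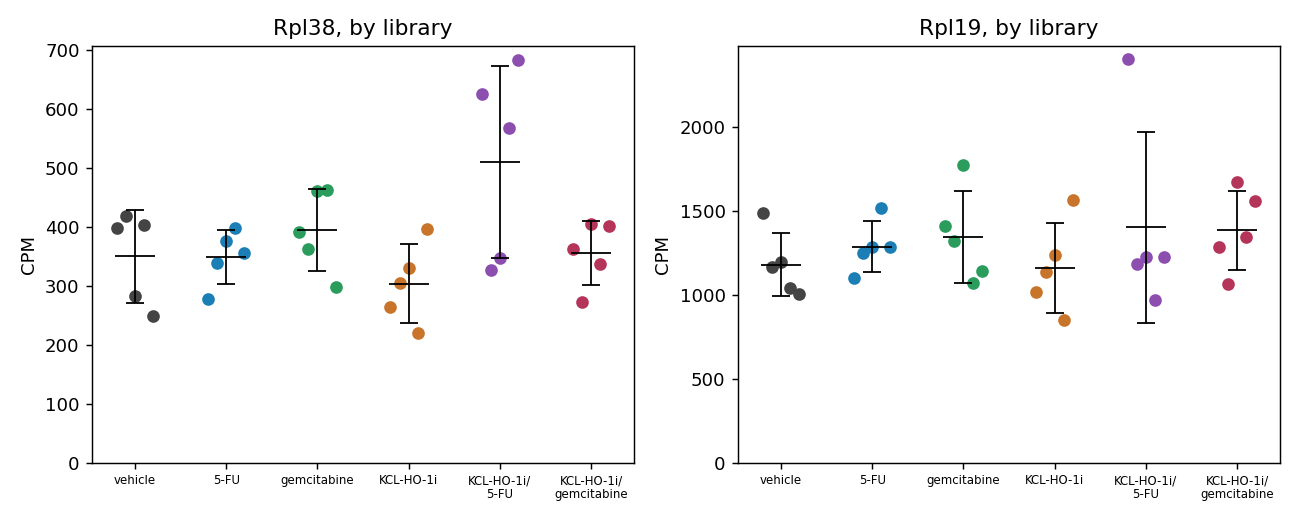
CPM of Rpl38 and Rpl19 by library (points, in replicate order; horizontal line and bars, mean and SD, n = 5). Rpl38 is high in 3 KCL-HO-1i/5-FU libraries and Rpl19 in 1 of them, at 2405 CPM.

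The members varied together within groups. After removing group means, the mean pairwise Pearson correlation over 30 libraries was 0.82 among the 79 members, 0.47 among the 78 mitochondrial ribosomal protein genes and 0.0017 among all 13663 tested genes. The value over all genes averages correlations of both signs on scaled levels, which brings it near 0. It is therefore no measure of how unusual 0.82 is. These libraries share a normalisation, and the correlations describe these libraries only. The correlation of each member with the mean of the other members was taken with group means left in, so differences between groups enter it. Of the members, 60 had a value of at least 0.9, and Rpl32 had the highest, 0.99. The lowest were Rpl38 at 0.17, Rpl19 at 0.64, and the paralogs Rpl7l1 at 0.68, Rps27l at 0.76 and Rpl22l1 at 0.77.

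**Figure D4:**
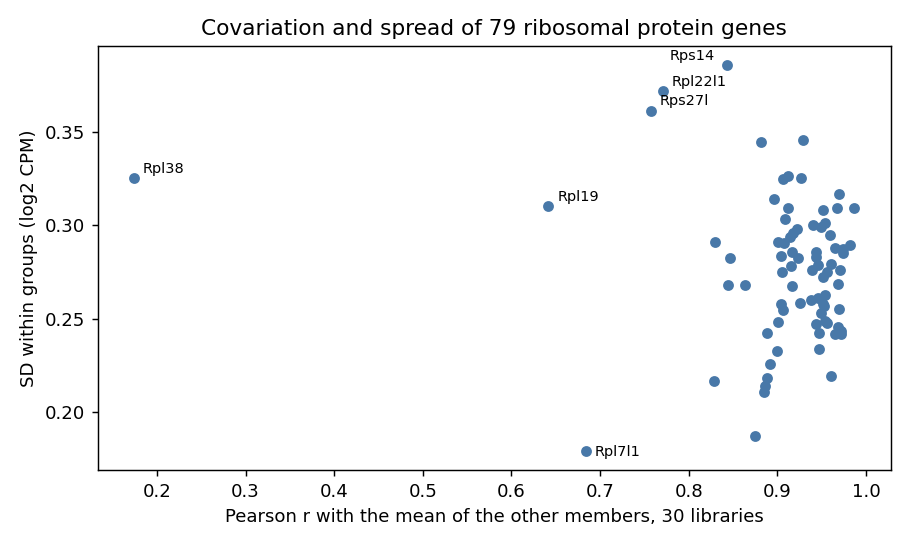
SD within groups of log2 CPM against the Pearson correlation with the mean of the other members (group means left in), 1 point per member over 30 libraries. Most members lie at 0.9 or above, and Rpl38 at 0.17 stands apart.

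Outside the rule, the genes most like the member mean included Naca (r = 0.98), Gm10260, Rps3a1, Gm11361 and Fau, with Eif3i and Eef1b2 also among the first 10. Naca encodes a subunit of the nascent polypeptide associated complex, and Fau encodes a ribosomal protein fused to a ubiquitin-like protein. The least alike were March6 (r = -0.81), Diaph2, Spag9, Sptbn1 and Taok1. The correlation with the member mean fell with transcript length across genes, from a median of 0.37 for 77 genes under 500 bases to -0.23 for 3381 genes over 4000 bases. The Spearman correlation with length was -0.51 across 11315 genes, which are not independent, and the members had a median length of 681 bases. The part of transcript length in the members' shared variation was not tested.

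Markers of other cell types had correlations of either sign with the members. The mean of 8 endothelial markers had r = -0.44 with the member mean over 30 libraries, that of 12 adipocyte markers -0.41, and that of 10 fibroblast and matrix markers -0.33. The summed adipocyte level ranged from 19.8 to 15584 CPM between libraries, and the summed level of the 10 luminal epithelial markers from 2857 to 6337 CPM. The 10 proliferation genes had r = 0.36, the T cell markers 0.26, the macrophage markers -0.30, the muscle markers -0.07 and the luminal markers -0.04, and no B cell marker passed the filter. Their part in the members' variation was not tested.

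Some members that departed from the rest did so with other genes of their chromosome, and others did not. For each library, the deviation of a member was its log2 level, centred on its median over libraries, minus the median of all members in that library. Of 2370 such values, 14 lay beyond 0.5, and 95% lay between -0.24 and 0.26. In gemcitabine replicate 3, 8 members of chromosome 7 were among those 14, with Rps15a at 0.63 and Rpl27a at 0.58 among them. All 14 chromosome 7 members together had a median deviation of 0.51 there, beside 0.40 for 853 other genes of the chromosome, which were centred in the same way on other genes. In 5-FU replicate 3 the medians were 0.26 and 0.26, with all 14 members above 0, and in vehicle replicate 5 both were 0.17. Over 30 libraries the member and other-gene medians of chromosome 7 had r = 0.95, and r = 0.86 without those first 2 libraries. For the 7 members of chromosome 11 it was 0.87. These were the highest of 19 chromosomes, with Spearman correlations of 0.76 and 0.88. Pearson r was 0.72 for the 1 member of chromosome 13, 0.68 for the 7 members of chromosome 17 and 0.58 for chromosome 10. It was 0.17 for chromosome 15, 0.20 for chromosome 4 and -0.28 for chromosome 5, and 0.51 over all 570 pairs of chromosome and library. In 5-FU replicate 4 the 2 members of chromosome 18 had a median of 0.30, beside -0.0011 for its other genes.

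**Figure D5:**
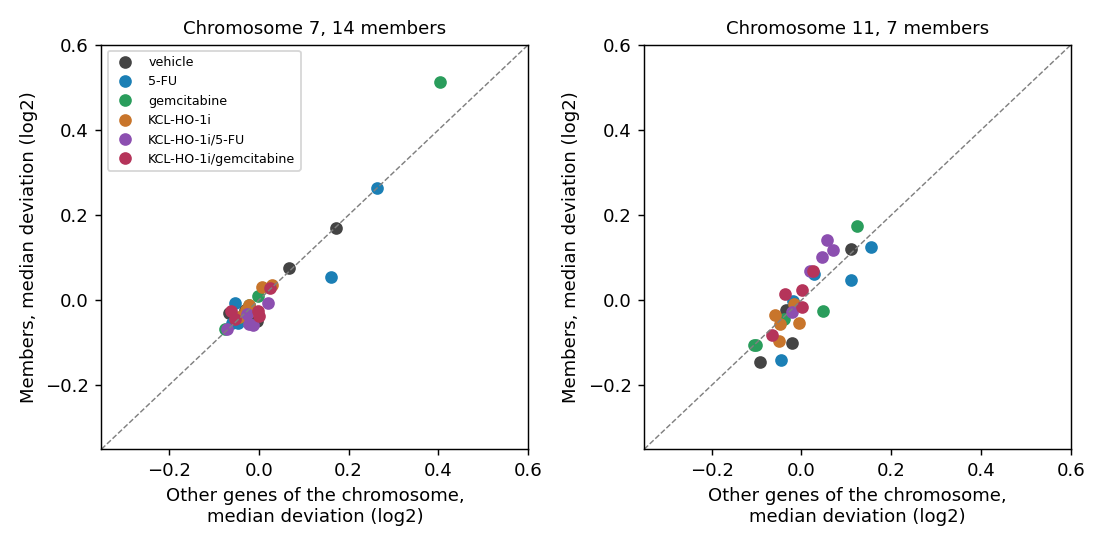
Median deviation (log2) of the members of chromosomes 7 and 11 against that of the other genes of the same chromosome, 1 point per library, coloured by group. The dashed line marks equality, and gemcitabine replicate 3 lies at 0.51 for the chromosome 7 members.

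Rpl38 followed its neighbours closely. In KCL-HO-1i/5-FU replicates 1, 4 and 5 its deviation was 0.97, 1.13 and 0.93, and the median of its 20 nearest other genes, between positions 110269369 and 115367756, was 0.90, 1.04 and 0.86. In gemcitabine replicate 4 the values were 0.48 and 0.58. Over 30 libraries r was 0.94, and 0.81 without the 3 KCL-HO-1i/5-FU libraries. Rpl19 in KCL-HO-1i/5-FU replicate 1 deviated by 1.14 and its 20 neighbours by 0.59. Rpl27, which lies between Rpl19 and Rpl38 on the chromosome, deviated by 0.07 there, and Rpl23 by -0.09. Over all 79 members the median correlation with the neighbours was 0.21, beside 0.12 for 11311 other genes. Rplp1 in 5-FU replicate 4 deviated by 0.61 with its neighbours at -0.07. Because the 3 high Rpl38 libraries are in 1 group, the treatment and the state of this region in those tumours cannot be told apart.

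The paralogs were lower than their partners. Rps27l, a target of p53, was below Rps27 by -1.06 ± 0.27 on the log2 CPM scale (SD, n = 30). The difference was -0.87 ± 0.27 in vehicle and -1.35 ± 0.14 with KCL-HO-1i/gemcitabine (SD, n = 5). Rpl22l1 was below Rpl22 by -2.18 ± 0.28 (SD, n = 30), with -2.29 ± 0.23 in vehicle and -2.02 ± 0.33 after gemcitabine. For Rps27l the 5-FU libraries, from -1.03 to -0.85, did not overlap those of KCL-HO-1i/gemcitabine, from -1.47 to -1.11. This pair of groups was noticed after the values were seen and was not tested, and how often other genes separate so was not counted. Vehicle and KCL-HO-1i libraries reached -1.30 and -1.34. The level of Rps27l itself had an unadjusted p of 0.497 in the edgeR test over all 6 groups. The ranges of Rpl22l1 overlapped between all groups. Rpl3l, the striated muscle form of Rpl3, was under the minimum, with 368, 106 and 78 counts in the 3 libraries that ranked 1 to 3 for the skeletal muscle markers. Rpl39l had 42 counts in all, at most 6 in a library, and Rpl10l was at 0 in every library.

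Levels per length spanned a wide range. Rps14 was at 3877 CPM per kb of its shortest principal transcript, followed by Rpl41, Rplp1, Rps15 and Rps28, and the median member was at 1285 CPM per kb. The lowest were Rps20 at 85.3, Rpl7l1 at 136, Rpl22l1 at 198, Rpl29 at 249 and Rpl30 at 418 CPM per kb. The annotated Rps20 transcript of 3706 bases is the longest of the members. Within groups the SD of log2 CPM had a median of 0.28 over members, largest for Rps14 at 0.39 and smallest for Rpl7l1 at 0.18. Many members have processed pseudogenes of near-identical sequence, so the division of their counts is uncertain.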

How the data were processed

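RNA-seq of 30 mouse mammary tumour libraries was analysed. Per the labels, RNA was extracted with the RNeasy Mini Kit and libraries were made with a directional kit. The submitters' processing notes name FastQC 0.11.9, STAR 2.7.9a, Salmon 1.9.0, DESeq2 and mm10. The deposited values were read as estimated counts, which the authors made per gene, and 38.0% are not whole. They were rounded here. Genes were kept with filterByExpr (minimum count 10), library sizes were summed over the genes kept, and TMM factors, a fit of 6 group means and the quasi-likelihood test of edgeR 4.0.16 (R 4.3.3) were used, with Benjamini-Hochberg adjustment at 0.05. CPM and log2 CPM (prior count 2) come from this fit. The fit was tested on simulated data.

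The library sizes were first summed over all genes. The change to genes kept was made after seeing that fit's calls (15 genes rather than 8 for KCL-HO-1i averaged over its backgrounds), because it matched an earlier account of these data. Transcript length was set in 3 ways in turn, the longest coding transcript, the median and then the shortest principal transcript of GENCODE M21, each change after seeing the levels. The last is reported, and the results of all 3 are given below.

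The members and lists were chosen with earlier results of these data known. Genes are named by a fixed list of members, by smallest p in each comparison, by extreme level, spread and correlation, and by likeness to the member mean. Rpl32 and members beyond a deviation of 0.5 were named after their values were seen. The labels do not say that replicates are separate animals, though the study describes cohorts of mice, so p-values measure the spread between libraries. A number in the description label is shared by several libraries, with 13 values in all, and its meaning is not given in the sources used here. The number 76 covers 5-FU replicates 1 to 3, gemcitabine replicates 1 to 4 and no other library. The label number is thus confounded in part with treatment. Samples with the same replicate number did not vary together (mean r of 0.0028 over 75 pairs). Depth was 12237933 ± 1026875 counts (SD, n = 30). Protein sequences were not used here, and a few genes that the naming rule picks are not reported here.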

Additional observations from a re-analysis of the deposited data

Results flagged for a closer look

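Among 66 groups of 5 values examined for a library far from the others, 7 had one. The rule flags about 1 in 20 independent groups by chance. These groups share libraries and the members vary together, so the count of 7 cannot be set against that rate. In 5-FU replicate 4 the share of counts from the members was 11.4%, with the next library at 7.92%. The same library was far above its group for Rps27 (1009 CPM, next 642), Rpl22 (687 CPM, next 479) and Rpl22l1 (172 CPM, next 105). In gemcitabine replicate 3, Rps27l was at 562 CPM, with the next library at 316 CPM. In KCL-HO-1i/5-FU replicate 1, Rpl19 was at 2405 CPM, with the next at 1228 CPM. Rpsa in KCL-HO-1i/5-FU replicate 5 was at 1199 CPM, with the next at 928 CPM. The causes were not tested.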

How the results depend on the processing

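Of 531 alternative counts of members called, 529 were unchanged at 0, including every fit without 1 library. The 2 others were DESeq2, which called 1 (Rpl38, the 5-FU combination against KCL-HO-1i alone), and limma-voom with sample quality weights, which called 1 (Rps27a, KCL-HO-1i/gemcitabine against vehicle, adjusted p = 0.0458). How many of all genes these 2 fits called is not given here, so neither call is read as a result about the members. With the label number as a covariate the median log2 fold change moved to 0.42 for 5-FU and 0.70 for gemcitabine against vehicle, -0.42 for KCL-HO-1i averaged over its backgrounds, -0.55 for KCL-HO-1i/5-FU against 5-FU, -0.68 for KCL-HO-1i/gemcitabine against gemcitabine, and -0.54 and -0.67 for the interactions with 5-FU and gemcitabine. In the main fit the median for KCL-HO-1i/gemcitabine against gemcitabine was -9.6e-05. The label number is not balanced over the groups, so its part and that of treatment cannot be fully told apart. Vehicle shares a number with another group only through its replicate 1 and KCL-HO-1i/gemcitabine replicate 5. The medians against vehicle with this covariate therefore rest on that link. 5-FU and KCL-HO-1i alone share a number only through replicate 4 of each, the libraries with the highest and the lowest share of counts from the members. The cause was not tested.

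With library sizes over all genes, an alternative added after seeing the data, 15 genes were called for KCL-HO-1i averaged over its backgrounds and 8 as reported, with 0 members in both. By transcript length, 4 of the 5 highest and 4 of the 5 lowest members were shared between the shortest principal and each of the other 2 rules. Rps15a replaced Rpl30 among the lowest, and the Spearman correlation with length was -0.51, -0.53 and -0.54. The replicate number as a block gave a median of -0.29 for KCL-HO-1i/5-FU against 5-FU and called 0 members. The log2 fold change of Rpl38 against KCL-HO-1i was between 0.62 and 0.88 without 1 library. Without 1 library the member medians ran from -0.06 to 0.14 for 5-FU and from 0.07 to 0.28 for gemcitabine against vehicle, from -0.33 to -0.13 for KCL-HO-1i/5-FU against 5-FU, and from -0.29 to -0.08 for that combination against KCL-HO-1i alone. KCL-HO-1i against vehicle ran from -0.11 to 0.10.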
